A study of Rattus norvegicus with 20 samples.

Results

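The genes described here encode the regulators of the NRF2 antioxidant response in rat liver: the transcription factors Nfe2l2 (NRF2) and Nfe2l1 (NRF1), the inhibitor Keap1, the MAF proteins Maf, Maff, Mafg and Mafk, the autophagy receptor Sqstm1 (p62) and the repressor Bach1. They were taken by gene symbol from the annotation of the array. Of the 9 genes, 8 had a named probe, and Nfe2l1 had none. The 8 genes were read by 10 of the 22523 probes on the array, 3 of them for Sqstm1. Signals over 200 on at least 5 arrays were required for testing, and 8 of the 10 member probes were among the 8145 probes that met this limit. The Maff and Bach1 probes exceeded 200 on 0 of the 20 arrays.

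Transcript levels were read with Illumina RatRef-12 arrays in a single colour, 20 in all, 5 in each of 4 groups. Male Fischer rats had received the carcinogen diethylnitrosamine (DENA) and then the Resistant-Hepatocyte protocol, a diet with 2-acetylaminofluorene (2-AAF), which blocks the division of normal hepatocytes, around a partial hepatectomy (PH). Nodules that stained for cytokeratin-19 (CK-19-positive) or did not (CK-19-negative), each array from a single nodule, were laser-microdissected 7 weeks after PH, which was 10 weeks after DENA. Early preneoplastic foci (EPFs), each array from a pool of foci, were taken 1 week after PH, which was 4 weeks after DENA. Controls were random areas of liver, described in one place of the study's methods as normal liver and in another as liver of rats under the protocol, and their ages are not given in the labels. The study calls its controls age-matched. Here the same 5 control arrays were compared with lesions of 4 and of 10 weeks after DENA, and a match to both ages could not be checked. The stain alone assigned the nodules to their group. The labels tie no array to an animal, and the methods give 4 to 5 rats, so p-values measure the spread between these samples, some of which may share a rat.

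NRF2 activates genes of glutathione synthesis, quinone reduction and conjugation after dimerizing with a small MAF protein on antioxidant response elements (AREs). KEAP1 holds NRF2 in the cytoplasm and presents it to a CUL3 ubiquitin ligase for degradation, and electrophiles stop this. p62 binds KEAP1 and carries it to autophagy, whereas BACH1 occupies the same elements with small MAFs as a repressor. NRF2 is controlled largely at the level of the protein, which these arrays do not measure. Mutations that activate NRF2 are known from human liver tumors.

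Mafg was the member that differed most between the groups. It was highest in CK-19-positive nodules, 2.14-fold above control liver, intermediate in CK-19-negative nodules, 1.46-fold above, and was not called in EPFs. One of 3 Sqstm1 probes was higher in both kinds of nodule than in control liver and in EPFs. With the chip as a fixed block and EPFs left out, the calls of this probe in CK-19-negative nodules against control liver and of Nfe2l2 between the kinds of nodule were lost, as was that of Keap1 in EPFs against control liver with the chip as a random block. The probe annotated as Maf was lower in CK-19-positive nodules than in control liver, and Keap1 was lower in EPFs than in control liver and in both kinds of nodule. Nfe2l2 itself passed the test in no lesion against control liver, and differed between lesions: it was higher in CK-19-positive than in CK-19-negative nodules, and lower in CK-19-negative nodules than in EPFs.

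A probe was called changed at an adjusted p under 0.05 in limma, with Benjamini-Hochberg adjustment over all probes tested. In CK-19-positive nodules against control liver, 3 of the 8 member probes were called, where 44.9% of all tested probes were. In CK-19-negative nodules 2 of 8 were called, against 15% of all probes. In EPFs 1 of 8 was called, against 55.7%. Between the lesions, 2 of 8 were called for CK-19-positive against CK-19-negative nodules (27.6% of all probes), 3 of 8 for CK-19-positive nodules against EPFs (44.6%) and 4 of 8 for CK-19-negative nodules against EPFs (51.5%). The shares of members were thus close to or under those of all probes, except in CK-19-negative nodules against control liver, where 8 probes allow little to be read from a share. Member probes differed from control liver by a median of 0.38, 0.34 and 0.27 on the log2 scale, regardless of sign, in CK-19-positive nodules, CK-19-negative nodules and EPFs, where all tested probes had medians of 0.27, 0.16 and 0.33. The arrays of the groups did not overlap for 3, 1 and 0 of the 8 member probes in CK-19-positive nodules, CK-19-negative nodules and EPFs against control liver, where 29.9%, 9.83% and 41.3% of all probes did not. With a further limit of 2-fold, Mafg in CK-19-positive nodules against control liver was the only member call in the 6 comparisons, where 9.13% of all probes passed. In the other comparisons 0 of 8 passed it, against 1.74% of all probes for CK-19-negative nodules and 11.9% for EPFs against control liver, 4.31% between the kinds of nodule, 5.51% for CK-19-positive nodules against EPFs and 8.59% for CK-19-negative nodules against EPFs.

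**Figure D1:**
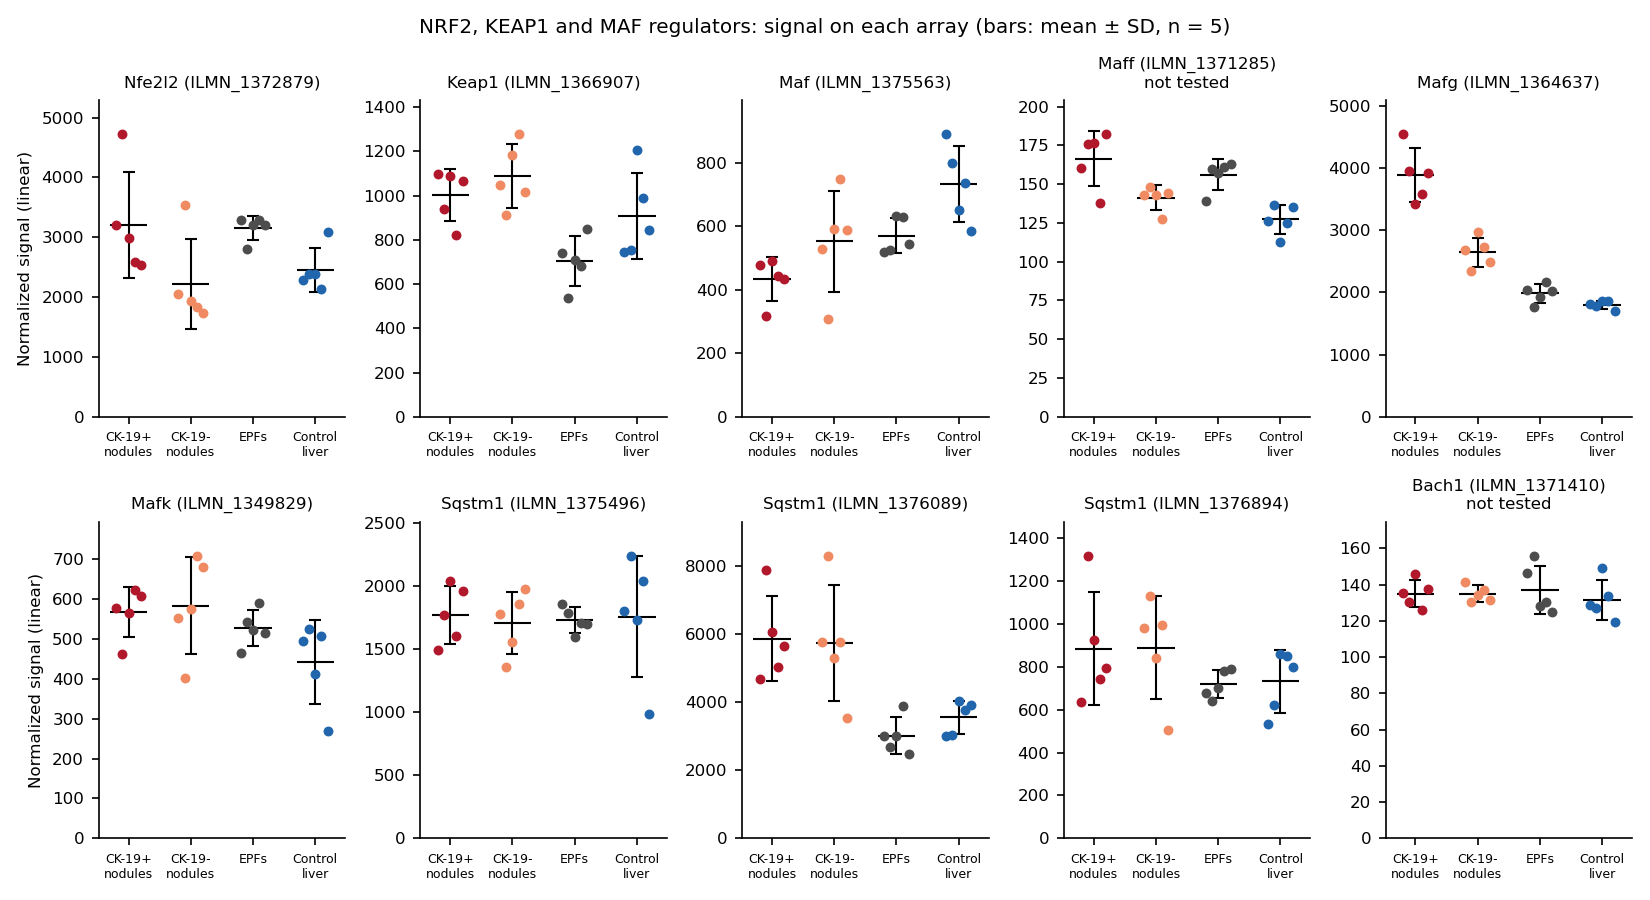
Normalized signal (linear scale, y axis from 0) of the 10 member probes on each of the 20 arrays, as points by group, with the mean and SD (n = 5). Mafg forms a ladder with control liver between 1707 and 1861, and Maff and Bach1 lie under the limit of 200 on every array.

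The whole series set the frame for these values. Array medians lay between 157 and 157.5 after the authors' normalization, and 7370 to 7383 probes exceeded 200 on an array. Krt19, which encodes the protein used to sort the nodules, averaged 4054 ± 2066 in CK-19-positive nodules, 534.6 ± 402 in CK-19-negative nodules, 614.2 ± 298.1 in EPFs and 224.4 ± 17.7 in control liver (SD, n = 5 each). The arrays lay on 4 chips: chip 1 held the CK-19-positive nodules with CK-19-negative nodule 5 and controls 1 and 2, chip 2 the other CK-19-negative nodules and control 3, chip 3 controls 4 and 5, and chip 4 the EPFs alone. For EPFs the chip, the recent 2-AAF and PH and the kind of lesion cannot be told apart.

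Markers of some cell types differed between the groups, while the sums of hepatocyte and of sinusoidal endothelial markers overlapped in all groups. Single markers of both these lists were called nonetheless. The bile duct and oval cell list holds Krt19, whose protein sorted the nodules. In microdissected tissue, fewer cells of a type and less RNA per cell cannot be told apart. The summed signal of 7 hepatocyte markers was 125700 to 147500 in CK-19-positive nodules, 141100 to 161900 in CK-19-negative nodules, 138700 to 160200 in EPFs and 117100 to 177900 in control liver, most of it from Alb, Serpina1, Ttr and Ass1. In CK-19-positive nodules against control liver, Alb and Serpina1 were called higher (1.33-fold and 1.32-fold) and Tat and Ass1 lower (2.77-fold and 1.58-fold), and Hnf4a was dim in all groups, with means of 195.8 to 268.6. Bile duct and oval cell markers (6 of the 8 with a probe were tested, and Krt7 and Cldn4 were under the limit) summed to 8436 to 15220, 1414 to 4364, 2929 to 6209 and 1289 to 1582 in the same order. Stellate cell and fibroblast markers (6 of 6 tested) summed to 8074 to 11640, 3888 to 6702, 4015 to 8547 and 4038 to 6013. Kupffer cell and macrophage markers (7 of 7 tested) summed to 9354 to 17540, 7053 to 9554, 6550 to 8981 and 10110 to 17770, and against control liver 1 was higher and 2 lower in CK-19-positive nodules, 0 higher and 4 lower in CK-19-negative nodules, and 0 higher and 5 lower in EPFs. Marco, a scavenger receptor of Kupffer cells, was lower in all 3, with log2 differences of -2.24, -1.73 and -2.16. Sinusoidal endothelial markers (6 of 7 tested, Cdh5 under the limit) summed to 3022 to 3733, 2932 to 3697, 3286 to 3975 and 3056 to 4460. Against control liver, Lyve1 was 1.59-fold higher and Vwf 1.31-fold lower in EPFs. Vwf was 1.34-fold higher in CK-19-negative nodules, and Fcgr2b 1.34-fold lower in CK-19-positive nodules. Of the T and B lymphocyte markers, 0 of 4 were tested. The red blood cell marker Hbb, the only one tested of 3 with a probe, was 1929 to 4369, 3779 to 8951, 1990 to 2552 and 11990 to 17880.

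Mafg encodes a small MAF protein, the DNA-binding partner that NRF2 needs, and carries no activation domain of its own. Its signals were 4539, 3942, 3425, 3575 and 3916 in CK-19-positive nodules 1 to 5. In CK-19-negative nodules they were 2672, 2348, 2969, 2734 and 2481. In EPFs they were 2037, 1764, 1924, 2169 and 2021, and in control liver 1815, 1776, 1858, 1861 and 1707. CK-19-positive nodules lay above all other arrays and CK-19-negative nodules above all EPFs and controls, while EPFs and control liver overlapped. Of all tested probes, 29.9% did not overlap between CK-19-positive nodules and control liver and 9.83% between CK-19-negative nodules and control liver. The share was 17.5% between the kinds of nodule, 35.8% for CK-19-positive nodules against EPFs and 38% for CK-19-negative nodules against EPFs.

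The difference in Mafg from control liver was 1.10 ± 0.09 (SE, log2) in CK-19-positive nodules (adjusted p = 1.624e-09) and 0.55 ± 0.09 in CK-19-negative nodules (adjusted p = 0.0001999). In both, an exact two-sided permutation test gave 0.007937, the smallest value that 5 against 5 arrays allow. The difference of 0.13 in EPFs (95% interval -0.05 to 0.32) did not pass (adjusted p = 0.209), while the exact permutation p was 0.04762. Directly compared, Mafg was 1.47-fold higher in CK-19-positive than in CK-19-negative nodules (adjusted p = 6.909e-05), 1.95-fold higher in the CK-19-positive nodules than EPFs (adjusted p = 3.031e-08) and 1.33-fold higher in CK-19-negative nodules than in EPFs (adjusted p = 0.0005581).

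Within chip 1 the log2 difference in Mafg was 1.11 for CK-19-positive nodules against control liver (adjusted p = 0.0001743) and 0.64 for CK-19-positive nodules minus the 1 CK-19-negative nodule there. With chip as a fixed block and EPFs left out, CK-19-negative nodules were 0.50 above control liver (adjusted p = 0.03271). Within chip 1 and within chip 2 this difference was 0.47 (adjusted p = 0.2083) and 0.52 (adjusted p = 0.5081) and was not called. In these within-chip fits one arm had a single array, which is assumed to vary like the others. The bile duct sum, which includes Krt19, and the stellate cell sum were also highest in CK-19-positive nodules. Against EPFs, however, 3 of 6 bile duct markers (Krt19, Epcam and Cd24) were higher and 3 (Spp1, Tspan8 and Prom1) lower in CK-19-positive nodules, and their part in the Mafg result was not tested.

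**Figure D2:**
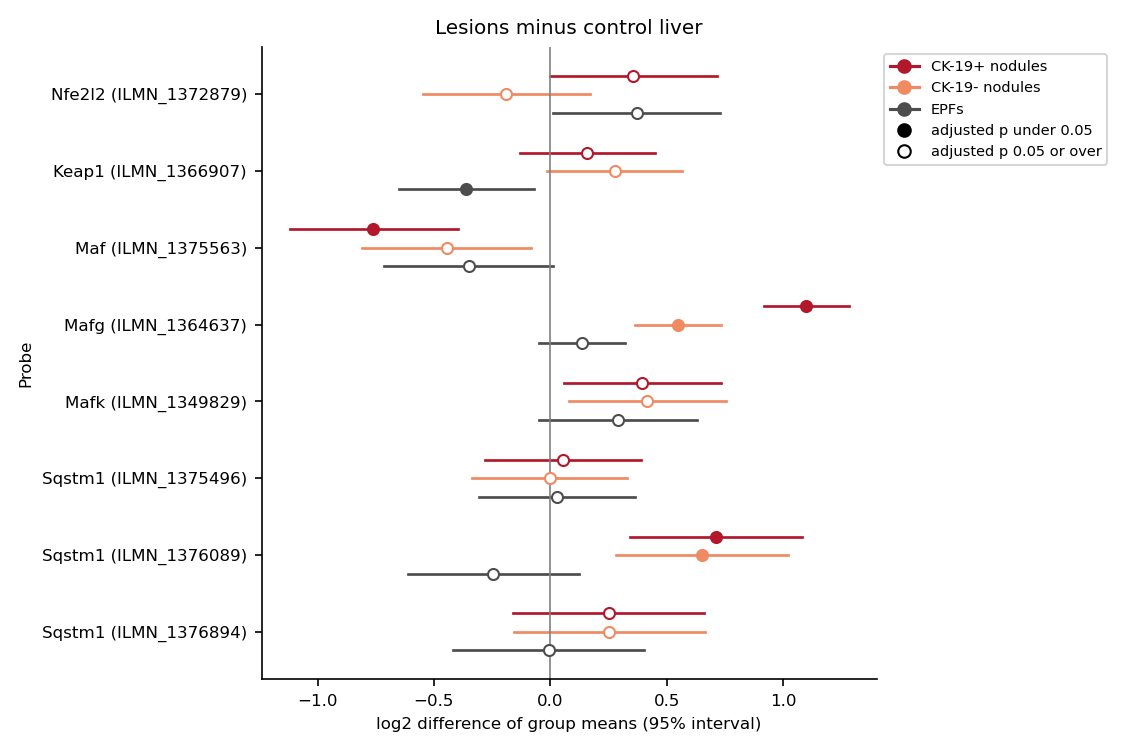
Log2 difference of the mean of each kind of lesion from control liver (x axis, point with its 95% interval) for the 8 tested member probes (y axis). Filled points passed an adjusted p of 0.05: Mafg and a Sqstm1 probe in both kinds of nodule, Maf in CK-19-positive nodules and Keap1 in EPFs.

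Mafk, a second small MAF, was not called in any of the 6 comparisons. In CK-19-positive nodules it read 579, 463, 565, 624 and 609. CK-19-negative nodules had 553, 402, 576, 710 and 681. The values were 465, 543, 523, 589 and 515 in EPFs, and 495, 525, 412, 508 and 270 in control liver. The control spread came mostly from control 5, and the groups overlapped. The differences from control liver were 0.39 (95% interval 0.06 to 0.73, adjusted p = 0.05281), 0.42 (0.08 to 0.75, adjusted p = 0.09069) and 0.29 (-0.05 to 0.63, adjusted p = 0.1369) on the log2 scale in CK-19-positive nodules, CK-19-negative nodules and EPFs. The first passed when any one of controls 1, 2 and 4 or CK-19-positive nodule 2 was left out (adjusted p of 0.03106 to 0.04362), and the second when CK-19-negative nodule 2 was left out (0.54, adjusted p = 0.02191).

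Maff, a small MAF known in mouse and human to be inducible by stress, stayed under the limit of 200 on all arrays. Its signals ran from 138 to 182.2 in CK-19-positive nodules, 127.4 to 148.3 in CK-19-negative nodules, 139 to 163.2 in EPFs and 113 to 136.6 in control liver. The ranges of CK-19-positive nodules and of EPFs lay just above that of control liver. Of all tested probes, 29.9% and 41.3% did not overlap in these comparisons, in either direction. At signals under the limit the size of a difference cannot be read, and none is given.

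Nfe2l2, which encodes NRF2, was well above the limit on all arrays. It read 3198, 4724, 2987, 2581 and 2544 in CK-19-positive nodules. In CK-19-negative nodules the values were 2047, 3541, 1941, 1834 and 1735. In EPFs they were 3289, 2799, 3213, 3287 and 3202, and in control liver 2286, 2388, 2391, 2143 and 3083. Nodule 2 of each kind stood above the rest of its group, as did control 5, and EPF 2 stood below the other EPFs.

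The log2 differences in Nfe2l2 from control liver were 0.36 in CK-19-positive nodules (95% interval -0.00177 to 0.714, adjusted p = 0.09794), -0.19 in CK-19-negative nodules (-0.55 to 0.17, adjusted p = 0.5122) and 0.37 in EPFs (0.01 to 0.73, adjusted p = 0.07304, exact permutation p = 0.01587). Without control 5 the first and the third passed, at 0.44 (adjusted p = 0.04893) and 0.46 (adjusted p = 0.03446). CK-19-positive nodules were 0.55 above CK-19-negative nodules (adjusted p = 0.02162, exact permutation p = 0.05556), with overlapping arrays. This call was lost without CK-19-positive nodule 2 (0.40, adjusted p = 0.07453) or without any one of CK-19-negative nodules 3, 4 and 5 (0.47 to 0.51, adjusted p of 0.05259 to 0.05892), with the chip taken as a fixed block (0.72, adjusted p = 0.121) and within chip 1, which holds 1 CK-19-negative nodule (0.85, adjusted p = 0.09118). CK-19-negative nodules were 0.56 below EPFs (adjusted p = 0.009729), a call kept without any single array. CK-19-positive nodules and EPFs had an estimated difference of -0.01 with an interval of -0.37 to 0.34.

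Leaving out nodule 2 of both kinds, an alternative chosen after these values were seen, narrowed the spread of Nfe2l2. CK-19-positive nodules were then 0.58 above CK-19-negative nodules (adjusted p = 0.0007534), CK-19-negative nodules were 0.37 below control liver (adjusted p = 0.02232) and 0.74 below EPFs (adjusted p = 8.961e-06), and EPFs were 0.37 above control liver (adjusted p = 0.003545), while CK-19-positive nodules differed from control liver by 0.21 (adjusted p = 0.1211). CK-19-negative nodule 2 was the highest or the lowest of its group for 8 of the 8 tested member probes, and CK-19-positive nodule 2 for 5 of 8. Over all tested probes, CK-19-negative nodule 2 lay a root mean square distance of 0.365 (log2) from the rest of its group, against 0.195 to 0.342 for the others of that group. Control 5 lay farther from its group, at 0.397, the largest distance of the 20 arrays, and was the highest or the lowest control for 5 of 8 member probes.

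Keap1, the inhibitor that presents NRF2 for degradation, read 1097, 939, 1088, 824 and 1065 in CK-19-positive nodules. In CK-19-negative nodules it read 1048, 914, 1184, 1278 and 1015. In EPFs it read 741, 536, 709, 680 and 848, and in control liver 747, 753, 1206, 988 and 846. All EPF arrays were below all CK-19-negative nodule arrays, as for 38% of all probes in either direction, and controls 1, 2 and 5 lay within the range of the EPFs.

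Keap1 was 0.64 higher in CK-19-negative nodules than in EPFs on the log2 scale (SE 0.14, adjusted p = 0.0006236, exact permutation p = 0.007937) and 0.52 higher in the CK-19-positive nodules than EPFs (adjusted p = 0.004278, exact permutation p = 0.01587). Both calls held without any single array. Against control liver, EPFs were lower by a log2 difference of -0.36 (95% interval -0.65 to -0.07, adjusted p = 0.03187, exact permutation p = 0.05556). That call was lost without control 3 or 4 or EPF 2 or 4, with adjusted p of 0.05479 to 0.1178 and differences of -0.35 to -0.25, and with the chip as a random block (-0.37, adjusted p = 0.05321). The nodules did not pass against control liver, with 0.16 (adjusted p = 0.3694) for CK-19-positive and 0.28 (adjusted p = 0.1997) for CK-19-negative ones. Within chip 1, with controls 1 and 2, CK-19-positive nodules were 0.41 above control liver (adjusted p = 0.03773).

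**Figure D3:**
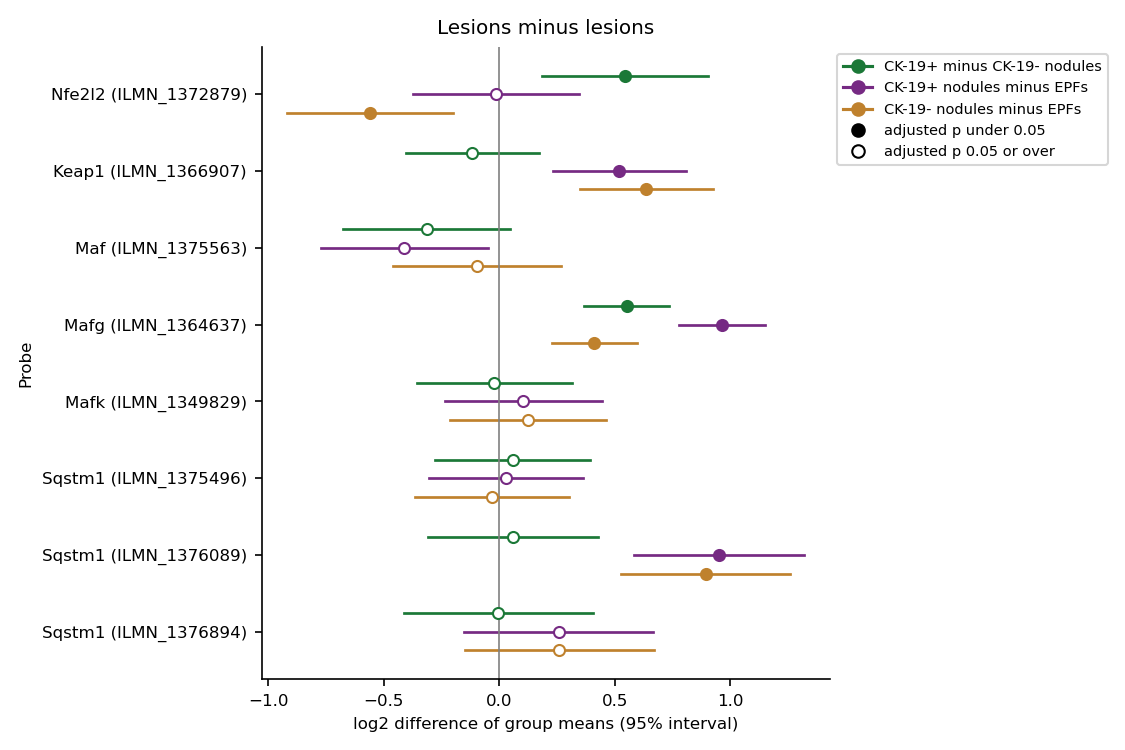
Log2 difference between the lesions (x axis, point with its 95% interval) for the 8 tested member probes (y axis), the first-named lesion minus the second. Mafg passed in the 3 pairs, Keap1 and a Sqstm1 probe passed in both pairs with EPFs, and Nfe2l2 passed between the nodules and for CK-19-negative nodules minus EPFs.

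Sqstm1 encodes p62, which both binds KEAP1 and is itself an NRF2 target. The platform's annotation assigns the probes ILMN_1376089 and ILMN_1376894 to one transcript record and ILMN_1375496 to another. The probe ILMN_1376089 read 4673, 7884, 6063, 5042 and 5666 in CK-19-positive nodules. In CK-19-negative nodules it read 5762, 8312, 5301, 5769 and 3549. In EPFs it read 3011, 2685, 3002, 3893 and 2481, and in control liver 3024, 3043, 4028, 3761 and 3927. The nodule arrays other than CK-19-negative nodule 5 were above all EPFs and all controls. For CK-19-positive nodules, 29.9% of all tested probes did not overlap with control liver and 35.8% with EPFs, in either direction.

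By this probe Sqstm1 was 1.63-fold above control liver in CK-19-positive nodules (log2 0.71 ± 0.18, SE, adjusted p = 0.002477) and 1.57-fold above in CK-19-negative nodules (0.65 ± 0.18, adjusted p = 0.016). EPFs differed from control liver by -0.24 (95% interval -0.61 to 0.12, adjusted p = 0.2528). Against EPFs, CK-19-positive nodules were 1.94-fold higher (adjusted p = 0.0001605) and CK-19-negative nodules 1.86-fold higher (adjusted p = 0.0002442). The kinds of nodule had an estimated difference of 0.06 (-0.31 to 0.43). On chip 1 the difference of CK-19-positive nodules from control liver was 0.93 (adjusted p = 0.003345) and 1.00 with a fixed block for the chip (adjusted p = 0.0005561). For CK-19-negative nodules it was 0.44 with the block (adjusted p = 0.2259), 0.23 within chip 1 and 0.62 within chip 2, and was not called in these, nor by the methods' t-test after Benjamini-Hochberg adjustment (adjusted p = 0.1222).

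The other Sqstm1 probes were called in none of the 6 comparisons. ILMN_1376894 did pass in CK-19-positive nodules against control liver with a fixed block for the chip (0.64, adjusted p = 0.02028) and not within chip 1 (0.57, adjusted p = 0.08435). ILMN_1376894 ran from 638 to 1318 in CK-19-positive nodules, 503 to 1128 in CK-19-negative nodules, 641 to 791 in EPFs and 533 to 858 in control liver, and its differences from control liver were 0.25, 0.25 and -0.01. ILMN_1375496 ran from 1495 to 2037, 1361 to 1975, 1592 to 1861 and 986 to 2241 in the same groups, with differences of 0.05, 0.00 and 0.03. Its 4 group means spanned 0.06 on the log2 scale, and 99.7% of all tested probes spanned as much or more.

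The probes of Sqstm1 were then compared within each array, by an exact two-sided permutation test of the log2 ratio of a pair of probes between groups (18 tests, Benjamini-Hochberg adjusted). ILMN_1376089 changed by 0.46 more than ILMN_1376894 in CK-19-positive nodules against control liver and by 0.40 more in CK-19-negative nodules (exact permutation p = 0.007937 and adjusted p = 0.02857 in both). Against ILMN_1375496 the gap was 0.65 in both kinds of nodule, with the sign turned because that probe came first in the ratio (-0.65, adjusted p of 0.1633 and 0.254, exact). Compared with EPFs, ILMN_1376089 changed by 0.696 more than ILMN_1376894 in CK-19-positive nodules and by 0.633 more in CK-19-negative nodules (adjusted p = 0.02857 in both, exact). The ratio with ILMN_1375496 first gave -0.925 in both, which passed in CK-19-positive nodules (adjusted p = 0.02857) and not in CK-19-negative nodules (adjusted p = 0.07143). Probes of one transcript record thus moved by unequal amounts, and the sequences of the probes were not analysed here.

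**Figure D4:**
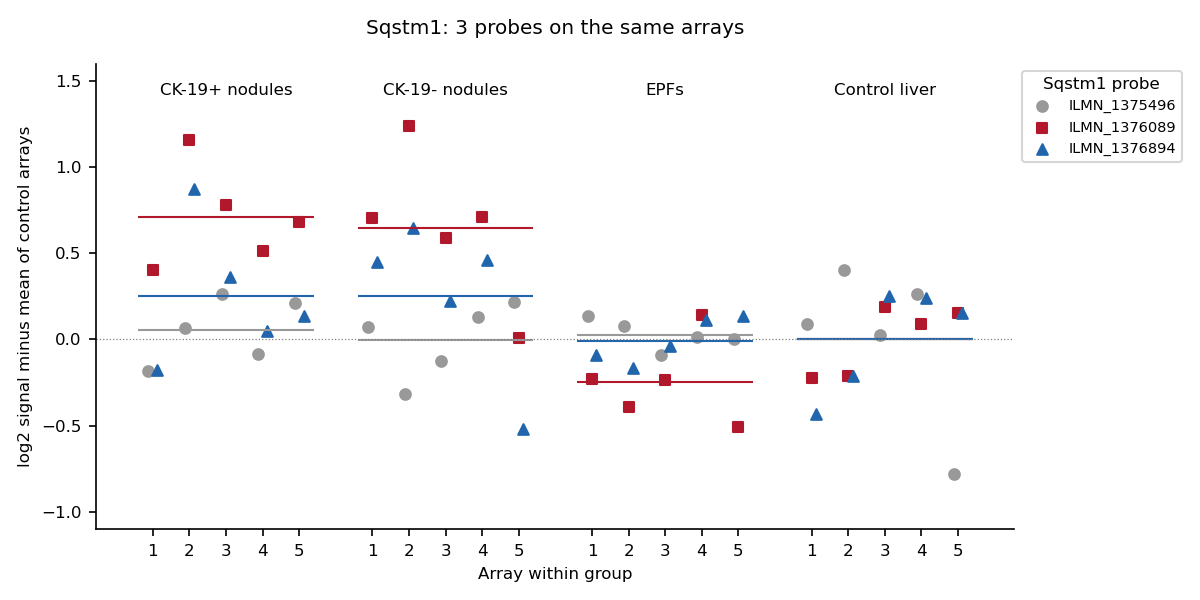
Log2 signal of the 3 Sqstm1 probes minus their own control mean (y axis) on arrays 1 to 5 of each group (x axis), with group means as lines. ILMN_1376089 averages 0.71 and 0.65 in the nodules and -0.24 in EPFs, while the group means of ILMN_1375496 lie within 0.06 of one another.

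Maf encodes c-MAF, a large MAF protein with its own activation domain, known in mouse for roles in lens and in macrophages. It read 478, 317, 492, 442 and 434 in CK-19-positive nodules. In CK-19-negative nodules it read 529, 309, 591, 749 and 588. In EPFs it read 519, 526, 633, 628 and 545, and in control liver 890, 800, 652, 737 and 583. The gene name is that of the platform annotation, and the sequence of the probe was not analysed here. On this array 8730 probes carried no name, and whether another of them reads Maf was not tested. The study lists Maf among the genes most raised in CK-19-positive nodules, the opposite direction to this probe. The reason for this difference was not tested. All CK-19-positive nodules lay below all EPFs and all controls, and CK-19-negative nodule 2 had the lowest value of the 20 arrays. Between CK-19-positive nodules and control liver, 29.9% of all tested probes did not overlap, in either direction.

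By this probe Maf was 1.69-fold lower in CK-19-positive nodules than in control liver (log2 -0.76 ± 0.175, SE, adjusted p = 0.001182, exact permutation p = 0.007937), -0.98 on the log2 scale within chip 1 (adjusted p = 0.001584). CK-19-negative nodules differed from control liver by -0.45 (-0.81 to -0.08, adjusted p = 0.09152) and EPFs by -0.35 (-0.71 to 0.01, adjusted p = 0.09435). Between CK-19-positive nodules and EPFs the arrays did not overlap, as for 35.8% of all probes, and the model gave -0.41 (adjusted p = 0.0613). CK-19-positive against CK-19-negative nodules gave -0.31 (adjusted p = 0.1964), which became -0.51 (adjusted p = 0.008559) without CK-19-negative nodule 2. Without CK-19-negative nodule 4, CK-19-negative nodules passed against control liver (-0.57, adjusted p = 0.03071). Of the macrophage markers, Marco and Vsig4 were lower in CK-19-positive nodules than in control liver and C1qc was higher, and their part in the Maf result was not tested.

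Bach1, the repressor at the same elements, was between 119.4 and 156 on all 20 arrays, under the limit of 200. Its group means were 135.1, 135 and 137.1 in CK-19-positive nodules, CK-19-negative nodules and EPFs and 131.6 in control liver. A low signal of a probe does not show that the gene was silent.

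Across the 4 groups, Mafg means spanned 1.10 on the log2 scale (14.9% of tested probes spanned as much), Sqstm1 by ILMN_1376089 0.95 (20.1%), Maf 0.76 (29.3%), Keap1 0.64 (38.4%), Nfe2l2 0.56 (45.5%) and Mafk 0.42 (61.4%). The named probes most like Mafg over the 20 arrays, by the root mean square difference of centred log2 signals, were Mgst2 (0.136), Ell3 (0.162), Olfml2b (0.189), Selenbp1 (0.193) and Prtfdc1 (0.198), where the median over all probes was 0.523. Mgst2, a microsomal glutathione transferase, averaged 21270 in CK-19-positive nodules, 14950 in CK-19-negative nodules, 12050 in EPFs and 9200 in control liver. Nearest to Sqstm1 by ILMN_1376089 were Ankh (0.193), Ugt2b37 (0.227), Ylpm1 (0.243), Ampd2 (0.246) and Cyfip1 (0.251), against a median of 0.57. Ugt2b37, a glucuronosyltransferase, averaged 24610 in CK-19-positive nodules, 21030 in CK-19-negative nodules, 11860 in EPFs and 15090 in control liver.

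Of 10 tested genes for the turnover of NRF2 and KEAP1, 3 were higher and 1 lower in CK-19-positive nodules, 1 was higher in CK-19-negative nodules, and 2 were higher and 5 lower in EPFs, against control liver. These shares are to be read against all tested probes, of which 23.2% were higher and 21.7% lower in CK-19-positive nodules. The shares were 8.25% higher and 6.74% lower for CK-19-negative nodules, and 28.7% higher and 27.1% lower for EPFs. The lists that follow are to be read against the same shares. The median differences were 0.04, 0.02 and -0.25 on the log2 scale, where all tested probes had medians of 0.00, 0.00 and -0.01. In CK-19-positive nodules the calls were Rbx1 (1.41-fold), the RING subunit of the KEAP1 ligase, Nedd8 (1.23-fold), the modifier that activates cullins, Skp1 (1.20-fold) and Dpp3 (1.27-fold lower), a peptidase that binds KEAP1. In CK-19-negative nodules it was Syvn1 (1.32-fold), the ligase HRD1. In EPFs, Nedd8 was 1.80-fold higher, and Gsk3b, a kinase that marks NRF2 for degradation, was 1.39-fold lower, with Syvn1 1.28-fold and Dpp3 1.26-fold lower. Cul3, the scaffold of the ligase, averaged 377.5 in CK-19-positive nodules, 326.5 in CK-19-negative nodules, 330.3 in EPFs and 384.4 in control liver and was not called against control liver.

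Among 5 tested genes that process NRF1, Ufd1 was 1.47-fold lower in CK-19-positive nodules and Vcp, the p97 ATPase, 1.54-fold lower in EPFs, against control liver, and 0 were called in CK-19-negative nodules. The medians of this list were -0.04, 0.04 and -0.20 in CK-19-positive nodules, CK-19-negative nodules and EPFs. Of 9 tested autophagy receptors and LC3 proteins, which share with p62 the delivery of cargo to autophagosomes, 1 was higher and 3 lower in CK-19-positive nodules, 1 lower in CK-19-negative nodules, and 1 higher and 4 lower in EPFs, with medians of -0.21, -0.15 and -0.13. Gabarapl2 was lower in all 3 kinds of lesion, by 1.66-fold in CK-19-positive nodules, 1.41-fold in CK-19-negative nodules and 1.70-fold in EPFs. Optn was 1.70-fold lower in CK-19-positive nodules and 1.71-fold lower in EPFs, and Map1lc3a was 1.40-fold and 1.38-fold higher in the same groups. Tollip was 1.16-fold lower in CK-19-positive nodules and Tbk1 1.29-fold lower in EPFs.

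The NRF2 target genes differed from control liver by larger medians than the member probes did. Against control liver, 23 of 26 tested targets were higher and 0 lower in CK-19-positive nodules, 17 higher and 1 lower in CK-19-negative nodules, and 20 higher and 0 lower in EPFs, against the shares of all tested probes given above. Their median differences were 1.91, 0.88 and 1.53 on the log2 scale. This list was chosen with earlier results of these data known. It holds genes, Gstp1, Akr1b8, Akr7a3 and Gpx2 among them, that the study lists as most raised in CK-19-positive nodules and EPFs. Its counts and medians are thus a description and no test. Gstp1, a glutathione transferase whose protein was used to identify these lesions, so that its difference is no finding, averaged 42150, 22480 and 43600 in CK-19-positive nodules, CK-19-negative nodules and EPFs against 378.5 in control liver. Akr7a3, an aldehyde reductase, was 31.3-fold, 18.1-fold and 29-fold higher. Akr1b8, an aldo-keto reductase that was under 200 on every control array, was at least 52.6-fold, 6.5-fold and 38.8-fold higher, with 200 in place of the control level. Gpx2, a glutathione peroxidase, was 22-fold higher in CK-19-positive nodules and 17-fold higher in EPFs, and the transporter Abcc3 was 11.5-fold higher in CK-19-negative nodules.

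Between the lesions, 20 of 26 targets were higher and 0 lower in CK-19-positive than in CK-19-negative nodules (median 0.83), 11 were higher and 1 lower in the CK-19-positive nodules than EPFs (median 0.39), and 2 were higher and 16 lower in CK-19-negative nodules than in EPFs (median -0.39). Of all tested probes, 15% were higher and 12.7% lower in the first of these comparisons, 22.3% higher and 22.3% lower in the second, and 24.7% higher and 26.8% lower in the third. The comparisons share their control or lesion arrays and are not independent of one another, and the limit of the list given above holds here too. By median difference from control liver the targets placed EPFs between the kinds of nodule. Mean Mafg was lowest of the lesions in EPFs, and mean Nfe2l2 in EPFs (3158) was near that in CK-19-positive nodules (3207).

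**Figure D5:**
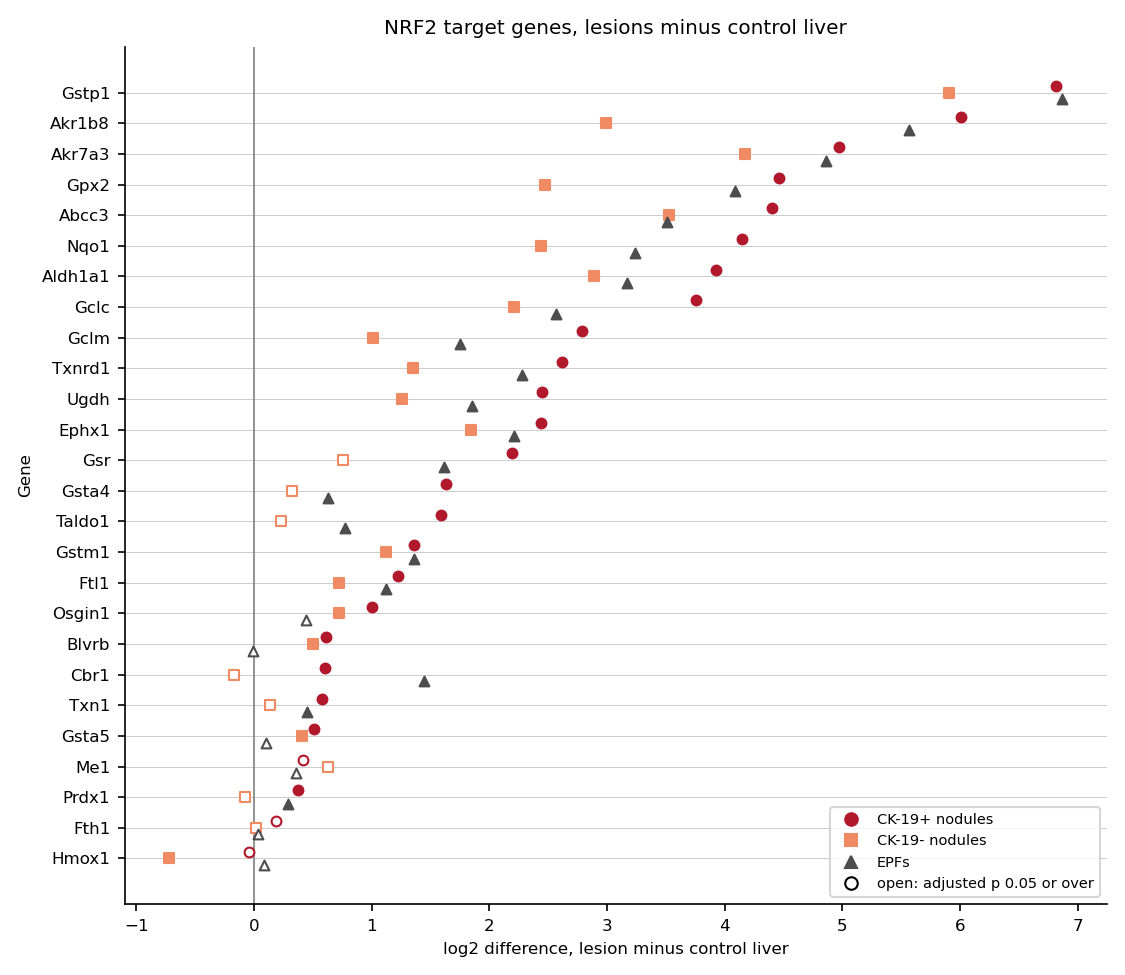
Log2 difference of each kind of lesion from control liver (x axis) for the 26 tested NRF2 target genes (y axis), filled where the adjusted p was under 0.05. CK-19-positive nodules passed for 23 genes, CK-19-negative nodules for 18 and EPFs for 20, and Hmox1 is the only gene that passed as lower, in CK-19-negative nodules.

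Genes that BACH1 represses included iron and heme genes. Of 7 tested, 4 were higher and 0 lower in CK-19-positive nodules, 2 higher and 1 lower in CK-19-negative nodules, and 3 higher and 1 lower in EPFs, with medians of 0.61, 0.10 and 0.08, again against the shares of 23.2% and 21.7%, 8.25% and 6.74%, and 28.7% and 27.1% of all probes. The heme transporter Slc48a1 was 2.95-fold and the iron exporter Slc40a1 2.47-fold higher in CK-19-positive nodules. Ftl1 was 2.33-fold and Blvrb 1.52-fold higher there. Hmox1, heme oxygenase, the best known BACH1 target, averaged 1051 in CK-19-positive nodules, 663.3 in CK-19-negative nodules, 1115 in EPFs and 1078 in control liver, and was lower in CK-19-negative nodules (1.65-fold, adjusted p = 0.02879). Ftl1 and Blvrb were higher in CK-19-negative nodules than in control liver, with log2 differences of 0.72 and 0.50. In EPFs, Ftl1 was 2.17-fold, Slc48a1 1.99-fold and Slc40a1 1.38-fold higher, and Fech, which inserts iron into heme, was 1.89-fold lower. Several genes of this list (Hmox1, Ftl1, Fth1 and Blvrb) also stood in the list of NRF2 targets.

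The promoters of the members were read for the elements that NRF2 and small MAF dimers bind. RefSeq promoters of the rat build GRCr8, from 250 bases before to 50 bases after the start site, were searched on both strands for the ARE core TGACNNNGC and for the MAF element half-site TGCTGAC. The ARE core was present in 12.1% of 33469 windows, in 30% of the 30 windows of NRF2 target genes and in 2 of 11 windows of the 9 members. The half-site was in 4.44% of all windows and in 1 member window, that of Nfe2l1, at positions -120 to -114 from the start. The 2 member matches to the ARE core were in Mafk, at positions -41 to -33 from the start on the opposite strand, and in Nfe2l2, at positions 39 to 47. The 250 bases before the start are shown for Mafg and Sqstm1, called in both kinds of nodule against control liver, Sqstm1 by ILMN_1376089 alone. With the chip as a fixed block, that Sqstm1 call was lost in CK-19-negative nodules. The 250 bases are also shown for Mafk, with a match in capitals, and for Nfe2l2 the 30 bases around its match. The windows are chr10:106410133-106410382 (minus strand) for Mafg, chr10:35037751-35038000 (minus strand) for Sqstm1, chr12:19959193-19959442 (minus strand) for Mafk and chr3:81028951-81028980 (minus strand) for Nfe2l2.
Mafg: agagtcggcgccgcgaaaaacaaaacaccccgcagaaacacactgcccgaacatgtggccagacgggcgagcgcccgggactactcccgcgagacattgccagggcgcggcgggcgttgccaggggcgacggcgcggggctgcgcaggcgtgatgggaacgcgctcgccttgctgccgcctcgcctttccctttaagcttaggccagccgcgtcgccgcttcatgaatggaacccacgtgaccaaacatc
Sqstm1: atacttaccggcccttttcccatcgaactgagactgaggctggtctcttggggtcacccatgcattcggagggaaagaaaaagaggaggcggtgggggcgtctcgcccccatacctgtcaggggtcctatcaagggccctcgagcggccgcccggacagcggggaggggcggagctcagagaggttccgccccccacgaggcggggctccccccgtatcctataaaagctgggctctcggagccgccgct
Mafk: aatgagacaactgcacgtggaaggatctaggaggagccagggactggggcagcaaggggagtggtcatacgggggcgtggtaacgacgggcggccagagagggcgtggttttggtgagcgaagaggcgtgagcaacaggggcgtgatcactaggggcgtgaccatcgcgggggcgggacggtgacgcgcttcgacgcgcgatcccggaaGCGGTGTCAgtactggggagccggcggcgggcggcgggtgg
Nfe2l2: cactgctccgactagccatTGACGCCGCct
Mafg, which differed most between the groups, had neither motif in its window, and Mafk, which was not called, had the ARE core. A match to these letters is a description of the sequence, and its absence says only that these letters are not in this window.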

How the data were processed

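RNA of laser-microdissected nodules, foci and control liver was amplified, labelled and hybridized by the authors. Per the labels and methods, intensity files were read in BeadStudio 3.0.19.0 and quantile normalized, and the deposited values are normalized intensities on a linear scale, with no background step stated. Another 40 deposited columns, signals and detection p-values before normalization, carry names that match no sample and were not used. For the deposited values, the sources used here name no genome build.

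Probes were named from the platform annotation (13793 of 22523 with 1 gene, 8730 not named). A linear model of the log2 intensities of all 20 arrays was made with lmFit and eBayes of limma 3.58.1 (R 4.3.3) over 8145 probes with signals over 200 on at least 5 arrays, with Benjamini-Hochberg adjustment within each comparison. The 5 arrays per group limit the precision. Signals near background understate changes. Figures were drawn in Python 3.11.15 with matplotlib 3.10.9. The arrays of a pair shared at most 0.133% identical values, and no array was a copy of another.

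Members and gene lists were chosen with earlier results of these data known. The text names all member probes, from each list the 4 called genes with the largest differences in each comparison with control, markers that move with a member, and the 5 nearest probes of 2 members. Cul3, Hmox1 in all groups and the cell type markers were added after their values were seen. Alternatives changed the filter, background, scaling, chip, test and arrays.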

Additional observations from a re-analysis of the deposited data

Results flagged for a closer look

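Single arrays stood apart from their group in 5 of 40 groups of 5 arrays, by the gap to the nearest array as a share of the range, where chance gives about 1 in 20 groups. For Nfe2l2 these were CK-19-negative nodule 2 at 3541 (the others at 1735 to 2047), EPF 2 at 2799 (3202 to 3289) and control 5 at 3083 (2143 to 2391). For Maff, under the limit of 200, they were CK-19-negative nodule 4 at 127.4 (142.7 to 148.3) and EPF 1 at 139 (157.3 to 163.2).

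The lesions differed from one another, by limma's test of the difference, in 9 cases. On the log2 scale, CK-19-positive minus CK-19-negative nodules was 0.545 for Nfe2l2 and 0.553 for Mafg. CK-19-positive nodules minus EPFs was 0.52 for Keap1, 0.965 for Mafg and 0.953 for Sqstm1 by ILMN_1376089. CK-19-negative nodules minus EPFs was -0.559 for Nfe2l2, 0.636 for Keap1, 0.412 for Mafg and 0.894 for Sqstm1 by ILMN_1376089. The 7 differences that involve EPFs cannot be told apart from a difference between chips.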

How the results depend on the processing

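No paired analysis was possible because each group carries 1 replicate number in the labels, the same for its 5 arrays. The numbers 1 to 5 used in the text follow the order of the samples and pair nothing. Mafg kept its calls in CK-19-positive nodules against control liver (1.04 to 1.16 over the alternatives fitted) and, apart from the 2-fold limit, in the comparisons between lesions. Maf kept its call in CK-19-positive nodules against control liver (-1.002 to -0.6527), apart from the 2-fold limit and the study's filter, which its probe did not pass. Of 91 counts of calls under alternatives other than single arrays left out, 64 stayed within 1.5 times, and of 680 differences 611 kept direction and side of the threshold. With the 2-fold limit added, the number of member probes called was 1 in CK-19-positive nodules against control liver and 0 in the 5 other comparisons. For EPFs against control liver it was 0 with no filter on low signals, the study's filter (which retains 1689 probes, Mafg and ILMN_1376089 among them) or signals under 300 raised to 300. It was also 0 with chip as a random block or an unadjusted p under 0.01. When only these groups were fitted, and by a t-test after Benjamini-Hochberg, it was 2 (Nfe2l2 and Maf, with Keap1 lost). The study's methods name Student's t-test in general, and for the arrays an F-test with a random variance model and a permutation test. For CK-19-positive against CK-19-negative nodules it was 1 with the study's filter, chip as a fixed block, with only these groups fitted and by the t-test with and without adjustment. For CK-19-negative nodules against control liver it was 1 with the fixed block and by the adjusted t-test, and 0 within chip 1 and within chip 2, and against EPFs 2 with the study's filter. Chosen after the data were seen, the t-test at its own threshold gave 3 for EPFs against control liver. Leaving out nodule 2 of both kinds, also chosen then, gave 4 for CK-19-negative nodules and 3 for EPFs against control liver. Leaving out single arrays gave 0 to 2 for EPFs against control liver (0 without control 3 or 4 or EPF 2 or 4, 2 without control 5) and 1 to 2 for CK-19-positive against CK-19-negative nodules (1 without CK-19-positive nodule 2 or CK-19-negative nodule 3, 4 or 5).

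Differences that changed sign were all of probes not called. Chip as a fixed block gave -0.2013 (CK-19-positive nodules against control liver) and -0.1427 (CK-19-positive against CK-19-negative nodules) for ILMN_1375496, 0.6254 for ILMN_1376894 and 0.1815 for Keap1 (both CK-19-positive against CK-19-negative nodules). Within chip 1 the first 3 were -0.19, -0.1652 and 0.7664, and CK-19-negative nodules minus control liver was -0.1952 for ILMN_1376894. Within chip 2 it was -0.1358 for Keap1. Chip as a random block gave 0.1384 for ILMN_1376894 between the nodules, and 0.01686 for Nfe2l2 and -0.02447 for ILMN_1375496 in CK-19-positive nodules against EPFs. Subtracting each array's 10% point gave 0.0006325 for ILMN_1375496 in CK-19-negative nodules against control liver and 0.001452 for ILMN_1376894 between the nodules. Without nodule 2 of both kinds, ILMN_1375496 gave 0.07425 (CK-19-negative nodules against control liver), -0.02171 (between the nodules) and 0.04761 (CK-19-negative nodules against EPFs), and Maf 0.09996 in the last of these. With single arrays left out, ILMN_1375496 ranged from -0.1405 to 0.1556 in CK-19-positive nodules, -0.1993 to 0.09676 in CK-19-negative nodules and -0.1688 to 0.1273 in EPFs against control liver, from -0.01935 to 0.1178 between the nodules, and from -0.02423 to 0.08729 and -0.08655 to 0.04761 for the CK-19-positive and for the CK-19-negative kind against EPFs. ILMN_1376894 ranged from -0.1959 to 0.1027 between the nodules and -0.1165 to 0.05503 in EPFs against control liver, ILMN_1376089 from -0.1011 to 0.2059 and Mafk from -0.1484 to 0.05625 between the nodules, Nfe2l2 from -0.1636 to 0.0596 in CK-19-positive nodules against EPFs and Maf from -0.2192 to 0.09996 in CK-19-negative nodules against EPFs. The cause of these changes was not tested.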
